A study of Mus musculus with 7 samples.

Results

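The control outflow tracts at embryonic day 11.5 (E11.5) are described here as a baseline transcriptome: the 3 pools whose labels give the genotype WT were taken from a series of 7 pools, and all 14732 genes of the deposited table were used in them. The outflow tract (OFT) is the arterial end of the embryonic heart. The study compared these wild-type OFTs with OFTs of embryos heterozygous for a disrupted *Gata6* allele, and the 4 mutant pools were not used, so no genotype is compared. The supplement on how the mutant line was made lists embryos mutant for *Mib1* as its background, and whether the control embryos carry a *Mib1* allele is not given in the sources used here. Each pool held OFTs of several C57BL/6 embryos, so differences between embryos are averaged within a pool, and the pools carry replicate numbers 3, 4 and 5 in the labels. RNA was poly(A)-selected, and the unit is CPM, counts scaled to 1000000 reads of an adjusted library size. The reads on listed genes numbered 20930875 in pool 3, 29035529 in pool 4 and 17783655 in pool 5, and 1 read was worth 0.0479, 0.0345 and 0.056 CPM in turn. Since 3 pools were measured, errors are the spread over 3 pools (SD, n = 3), and no test was made between them.

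At this stage the OFT is a muscular tube lined by endocardium, with cellularised cushions of mesenchyme between both layers. Its myocardium is added from progenitors of the second heart field, its cushion cells come from endocardium and from cardiac neural crest, and the cushions and the tube are later remodelled into the aortic and pulmonary valves and trunks. A dissected OFT also carries the epicardial or mesothelial cover, blood, and whatever ventricle or pharyngeal tissue stays attached at its ends. Because these are bulk RNA samples, a larger number of cells of a type and more RNA per cell cannot be told apart.

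The 3 pools were close over most genes but differed in a few gene groups. The highest pool was at least 1.5 times the lowest, on CPM + 0.5, for 1498 of 14732 genes (10.2%), and for 454 of the 11643 genes that averaged 5 CPM or more. The median ratio of highest to lowest pool was 1.17. Over all genes, the highest level was in pool 3 for 35.4%, in pool 4 for 32.3% and in pool 5 for 32.3%. A single pool was at least 1.5 times each of the others for 86 genes in pool 3 (0.584%), 165 in pool 4 (1.12%) and 131 in pool 5 (0.889%), and for 12, 71 and 37 genes that averaged 5 CPM or more. Pool 4 stood apart by most ventricular chamber genes and by *Nppa*, and pool 5 by genes of red blood cells. Values that rest on these pools are therefore given pool by pool, in the order 3, 4 and 5.

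Pool 4 had the highest level of 7 of 8 ventricular chamber genes (32.3% of all genes). Of these, 4 were at least 1.5 times each other pool (1.12% of all genes). *Bmp10*, a growth factor of trabecular myocardium, was at 6.14, 66.5 and 11.3 CPM in pools 3, 4 and 5. *Nppa*, the atrial natriuretic peptide gene of working chamber myocardium, was at 32.1, 174 and 18.3 CPM. *Nppb*, the related brain natriuretic peptide gene, was at 10.2, 58.1 and 13.3 CPM. The level of these genes in pools 3 and 5 was low and that in pool 4 was several-fold higher. *Cited1*, a transcriptional co-regulator, was at 25.9, 143 and 37.5 CPM, and *Gja5*, which encodes connexin 40 of fast-conducting myocardium, was at 16, 40.1 and 25.3 CPM. *Myl2*, the ventricular myosin light chain gene, was abundant everywhere, at 1199.7, 1784 and 1283 CPM. *Irx4*, a ventricular homeobox gene, was at 19.5, 36.1 and 27.9 CPM, and *Hey2*, a Notch target of compact myocardium, was at 75.5, 90.5 and 88.4 CPM. *Hand1* was the exception, with its highest level in pool 3, at 74.1, 57.6 and 58 CPM.

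The summed level of the ventricular list was 1427, 2275 and 1544 CPM, and the mean without pool 4 was 1486 CPM, against 1749 CPM with it. The atrial list, which was defined by *Sln*, *Nr2f1*, *Nr2f2* and *Kcna5* and also held *Nppa*, summed to 87.6, 240.3 and 80.8 CPM, with a mean of 136.2 CPM and of 84.2 CPM without pool 4. *Sln*, the sarcolipin gene of atrial muscle, was lowest in pool 4, at 5.42, 2.31 and 5.54 CPM, and *Kcna5* was at 14.6, 10.5 and 12.8 CPM. *Nr2f2*, a nuclear receptor of atrial muscle and veins, was highest in pool 4, at 10.5, 22.2 and 13.7 CPM, but most of the excess of the atrial sum in pool 4 was *Nppa*. Pool 4 also had the highest level of 18 of 23 endothelial genes (32.3% of all genes), and a lower level of male-specific transcripts. *Xist*, the RNA of the inactive X chromosome, was at 362, 662 and 507 CPM. *Ddx3y*, on the Y chromosome, was at 33.4, 12.3 and 22.3 CPM. *Eif2s3y*, *Kdm5d* and *Uty* were likewise highest in pool 3 and lowest in pool 4. Every pool thus held transcripts of both sexes, in different proportions, and the part of this difference in the chamber genes was not tested.

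**Figure D1:**
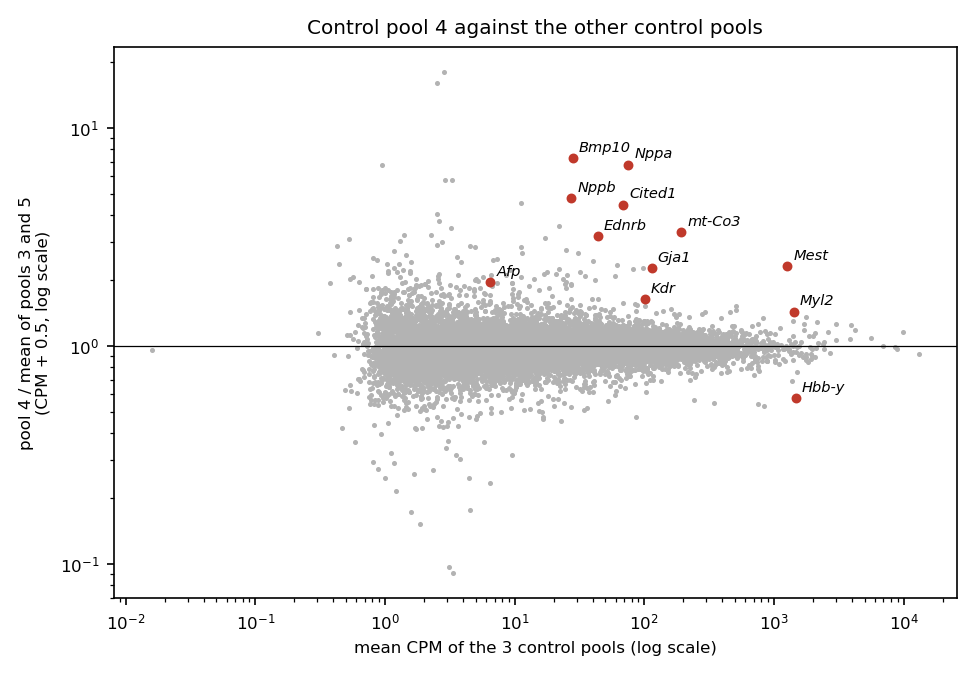
Each grey point is 1 gene. The x axis is the mean CPM of the 3 control pools and the y axis is pool 4 divided by the mean of pools 3 and 5 on CPM + 0.5, both on log scales. Named genes are in red. *Bmp10* and *Nppa* lie at 7.26 and 6.78 times the other pools, while *Hbb-y* lies below 1.

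In pool 5, 16 of 16 listed erythroid genes were at their highest (32.3% of all genes). Of these, 12 were at least 1.5 times each other pool (0.889% of all genes). *Hbb-y*, which encodes an embryonic beta-like globin, was at 1089, 988 and 2348 CPM, and *Hba-x*, the embryonic zeta globin gene, was at 704, 526 and 1294 CPM. *Alas2*, the first enzyme of haem synthesis in red cells, was at 17.5, 17.7 and 38.7 CPM. *Slc4a1*, the anion exchanger of the red cell membrane, was at 49.1, 51.3 and 98.2 CPM. For these genes pools 3 and 4 were nearer to each other than to pool 5, which was above both. *Gata1* and *Epor* moved less, with ratios of highest to lowest pool of 1.27 and 1.38. The list summed to 3037, 2577 and 6177 CPM, and its mean without pool 5 was 2807 CPM. The macrophage list was also highest in pool 5 for 12 of 16 genes (32.3% of all genes), and summed to 86.9, 101.2 and 127.0 CPM. The pairs *Hba-a1* and *Hba-a2*, and *Hbb-bs* and *Hbb-bt*, share 57.6 to 84.6% of their 60-base windows, the read length, so the split of reads within each pair is uncertain.

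The promoters of some genes that carried these differences, and of 3 abundant contractile genes, are shown with matches to 3 short motifs. For each gene, a window that held a match is shown. The sequences are from RefSeq on GRCm38.p6 and run from 250 bases before to 50 bases after the annotated start, 5′ to 3′ on the strand of the gene. Capitals mark a CArG box, the site of serum response factor, and the letters TATAAA and AGATAA, searched on both strands. They did not overlap in the windows shown. The first set holds contractile genes with a CArG box: *Actc1* (chr2:114052826-114053125, minus strand), *Myl7* (chr11:5898733-5899032, minus strand) and *Myl3* (chr9:110763428-110763727, plus strand).
Actc1: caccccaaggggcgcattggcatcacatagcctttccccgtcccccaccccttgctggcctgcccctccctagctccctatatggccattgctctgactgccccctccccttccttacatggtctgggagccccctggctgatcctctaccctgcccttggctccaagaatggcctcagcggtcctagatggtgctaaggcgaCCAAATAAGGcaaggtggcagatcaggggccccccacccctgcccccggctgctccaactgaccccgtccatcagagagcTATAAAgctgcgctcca
Myl7: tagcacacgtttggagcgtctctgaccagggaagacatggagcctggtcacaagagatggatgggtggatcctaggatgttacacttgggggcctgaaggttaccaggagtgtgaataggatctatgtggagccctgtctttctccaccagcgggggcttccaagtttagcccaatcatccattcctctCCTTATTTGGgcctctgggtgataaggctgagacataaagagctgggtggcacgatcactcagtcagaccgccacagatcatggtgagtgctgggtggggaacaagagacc
Myl3: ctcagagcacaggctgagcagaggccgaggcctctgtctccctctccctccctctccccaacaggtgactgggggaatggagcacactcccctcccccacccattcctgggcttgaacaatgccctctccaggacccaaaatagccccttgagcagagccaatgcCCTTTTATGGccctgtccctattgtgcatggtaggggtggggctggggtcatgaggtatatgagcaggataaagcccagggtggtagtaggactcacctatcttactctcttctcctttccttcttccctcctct

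The second set holds the natriuretic peptide genes and *Bmp10*, which were high in pool 4, and the globin and haem synthesis genes that were high in pool 5: *Nppa* (chr4:148000472-148000771, plus strand), *Nppb* (chr4:147985650-147985949, plus strand), *Bmp10* (chr6:87428744-87429043, plus strand), *Hba-x* (chr11:32276350-32276649, plus strand) and *Alas2* (chrX:150547167-150547466, plus strand).
Nppa: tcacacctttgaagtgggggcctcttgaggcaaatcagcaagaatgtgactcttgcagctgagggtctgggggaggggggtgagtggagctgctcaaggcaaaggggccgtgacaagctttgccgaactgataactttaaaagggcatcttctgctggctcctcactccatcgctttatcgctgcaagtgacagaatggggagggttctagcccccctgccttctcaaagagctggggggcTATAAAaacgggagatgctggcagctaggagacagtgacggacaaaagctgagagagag
Nppb: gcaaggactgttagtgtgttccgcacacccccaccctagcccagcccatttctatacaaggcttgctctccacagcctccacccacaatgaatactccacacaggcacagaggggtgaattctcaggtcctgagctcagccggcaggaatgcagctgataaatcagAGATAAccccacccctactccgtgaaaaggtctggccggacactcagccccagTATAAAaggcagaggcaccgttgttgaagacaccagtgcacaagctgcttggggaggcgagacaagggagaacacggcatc
Bmp10: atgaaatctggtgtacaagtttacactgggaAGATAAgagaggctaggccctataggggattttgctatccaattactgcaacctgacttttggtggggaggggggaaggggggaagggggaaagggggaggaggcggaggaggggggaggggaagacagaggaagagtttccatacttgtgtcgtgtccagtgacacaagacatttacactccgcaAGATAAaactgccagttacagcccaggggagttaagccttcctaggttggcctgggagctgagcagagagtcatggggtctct
Hba-x: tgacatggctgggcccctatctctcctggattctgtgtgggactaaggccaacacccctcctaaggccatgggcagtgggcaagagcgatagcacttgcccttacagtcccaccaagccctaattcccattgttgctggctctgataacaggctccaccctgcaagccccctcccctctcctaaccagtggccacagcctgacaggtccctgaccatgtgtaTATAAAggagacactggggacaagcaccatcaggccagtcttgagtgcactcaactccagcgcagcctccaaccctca
Alas2: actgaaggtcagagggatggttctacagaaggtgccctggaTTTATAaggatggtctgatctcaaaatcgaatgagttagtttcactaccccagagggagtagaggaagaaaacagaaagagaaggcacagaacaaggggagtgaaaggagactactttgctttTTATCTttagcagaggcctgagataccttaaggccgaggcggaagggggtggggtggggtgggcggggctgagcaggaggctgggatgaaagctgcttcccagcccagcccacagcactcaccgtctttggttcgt

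A promoter was matched for 10852 listed genes by symbol. A CArG box was in 1.60% of them, in 5 of 22 cardiomyocyte promoters (*Myl3*, *Myl7*, *Actc1*, *Nebl* and *Ldb3*) and in 1 of 11 smooth muscle promoters (*Myl9*). AGATAA, a form of the GATA factor motif, was in 7.86% of them, in 3 of 7 ventricular promoters (*Myl2*, *Bmp10* and *Nppb*) and in 4 of 11 erythroid promoters (*Alas2*, *Hbb-bs*, *Epor* and *Epb42*). It was also in 4 of 12 OFT and second heart field promoters, in 4 of 22 cardiomyocyte promoters and in 2 of 5 promoters of the sex-linked list. It was in 0 of 5 atrial, 0 of 11 smooth muscle and 0 of 13 cushion promoters. TATAAA was in 9.0% of them, in 3 of 7 ventricular promoters and in 4 of 11 erythroid promoters. Lists without such a difference in pools 4 or 5 had it as well, with 2 of 3 hepatoblast and 3 of 5 sex-linked promoters, while 0 of 23 proliferation promoters did. In the windows shown, the TATAAA of *Nppb* and *Hba-x* began at -31 and -28 from the annotated start. That of *Nppa* began at -9 and that of *Actc1* at 34, after the start. In *Alas2* it was on the opposite strand, at -209 to -204. A match gives the letters only, not binding or use as a control site.

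The most abundant transcripts were those of an imprinted growth locus, of the mitochondrion, and of heart muscle. A mean of at least 100 CPM was reached by 2262 genes (15.4%), and of at least 1000 CPM by 78 genes, which held 17.5% of all CPM. The 10 most abundant genes held 6.82, 6.98 and 6.56% of the CPM of pools 3, 4 and 5. *H19*, an imprinted non-coding RNA, ranked first at 13074 ± 770.5 CPM (SD, n = 3). *Igf2*, the growth factor gene next to it, ranked 4 at 8520.2 ± 889.7 CPM (SD, n = 3), and *Igf2r*, whose product clears that factor, ranked 13 at 2598 ± 267 CPM (SD, n = 3). *Myh7*, the slow myosin heavy chain gene, ranked 3 at 8955 ± 555 CPM (SD, n = 3), and *Actc1*, cardiac actin, 6 at 5639 ± 522 CPM (SD, n = 3). *Ttn*, the giant spring protein of the sarcomere, ranked 20 at 2073 ± 172 CPM (SD, n = 3). *Fn1*, fibronectin, was at 2990.1 ± 267 CPM (SD, n = 3), and *Col3a1*, a fibrillar collagen, at 2099.8 ± 27 CPM (SD, n = 3). The other genes among the first 20 were the translation factors *Eef1a1* and *Eef2*, the chaperones *Hsp90ab1* and *Hspa8*, the cytoskeletal actin *Actg1*, 4 mitochondrial genes and 3 nuclear pseudogenes of mitochondrial genes.

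CPM grows with transcript length, so levels of different genes were compared after division by the longest annotated transcript and rescaling each pool to a total of 1000000, called the length-scaled level. On that scale 13 of the 20 most abundant genes were kept. *Ttn* moved from rank 20 to rank 3603. The short transcripts *Hbb-y*, *Myl7* and *Myl2* moved up to ranks 11, 12 and 14, with length-scaled levels of 5899 ± 2984, 5883 ± 1222 and 4062 ± 918. The spread of *Hbb-y* came with the erythroid genes of pool 5. *Actc1* was at 9721 ± 966, above *Myh7* at 3649 ± 242.

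**Figure D2:**
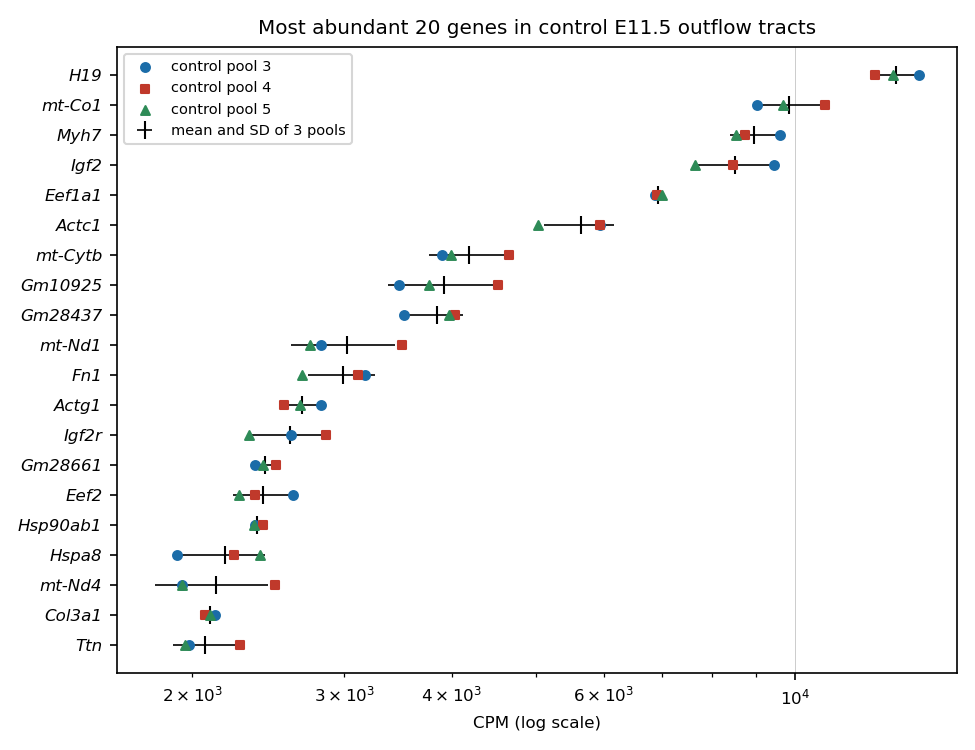
The 20 genes with the highest mean CPM, on a log axis. Symbols are the 3 control pools, and the bar is the mean and SD (n = 3). *H19* ranked first in each pool, at 13896, 12369 and 12958 CPM in pools 3, 4 and 5.

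Mitochondrial reads were divided between near-identical genes. All 60-base windows of *Gm10925*, *Gm28437* and *Gm28661*, which are pseudogenes on chromosome 1, are also found in *mt-Atp6*, *mt-Co3* and *mt-Co2*. *mt-Co3*, a subunit of cytochrome oxidase, was at 194, 359 and 21.8 CPM in pools 3, 4 and 5, a ratio of highest to lowest of 16.1. The sum of *mt-Co3* and *Gm28437* was 3716, 4395 and 3988 CPM. *Rpl23a-ps3* was at 13.6, 20.3 and 0 CPM, and its sum with *Rpl23a* differed by 1.08-fold between pools. These values of *mt-Co3*, of *Rpl23a-ps3* and of the 3 pseudogenes are uncertain. Other abundant genes share windows with other genes as well. The share was 100% for *mt-Co2*, 61.9% for *mt-Nd4* and 46.5% for *mt-Co1*. It was 56% for *Actg1*, 52.4% for *Eef1a1* and 47.4% for *Hspa8*. The values of these genes are uncertain in part. *Igf2* shares 75.9% of its windows with *Gm49394*, which overlaps its locus and was at 10.2 CPM. *Myh6* and *Myh7* share 19.1 and 18.7% of theirs, and the actins *Actc1*, *Acta2* and *Actg2* share none.

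Heart muscle genes had the highest summed CPM of the 22 marker lists. All 24 cardiomyocyte genes had a value, 22 at 100 CPM or more, with a median of 809.8 CPM against 26.2 CPM over all genes. The list summed to 33874, 33163 and 30676 CPM, highest in pool 3. By gene, 10 were highest in pool 3, 13 in pool 4 and 1 in pool 5. Over all genes these shares were 35.4, 32.3 and 32.3%. *Myh7* exceeded *Myh6*, the fast myosin heavy chain gene, at 3649 ± 242 against 709.6 ± 84.1 on the length-scaled level. *Tnnt2* (troponin T) was at 1613 ± 123 CPM (SD, n = 3), *Tnni3* (the adult cardiac troponin I) at 247 ± 14.2 CPM (SD, n = 3), and *Tnni1* (the slow isoform) at 938 ± 25.4 CPM (SD, n = 3). On the length-scaled level *Tnni1* was at 1106 ± 36.5 and *Tnni3* at 688 ± 36.7. *Actn2*, the anchor of actin at the Z disc, was at 961 ± 34.6 CPM (SD, n = 3). *Pln*, the regulator of the calcium pump, was at 324, 469 and 375 CPM, and *Atp2a2*, the pump itself, was at 1035, 1257 and 1036 CPM, each highest in pool 4. *Myl7*, the atrial light chain gene, was at 1601, 1049 and 1455 CPM and lowest in pool 4, the 1 gene of the list whose pools differed by at least 1.5-fold.

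Genes of the smooth muscle list were also high, apart from late markers. The 15 genes summed to 7043, 6594 and 6415 CPM, and their median ratio between pools was 1.19. The largest part of the sum was *Tpm1*, a tropomyosin gene, at 1902 ± 11 CPM (SD, n = 3). *Mylk*, *Actg2* and *Lmod1* averaged 24, 16.8 and 10.3 CPM. *Acta2*, smooth muscle actin, was at 1573 ± 127 CPM (SD, n = 3), *Tagln* (transgelin) at 718 ± 94.7 CPM (SD, n = 3) and *Cnn1* (calponin) at 322 ± 31.2 CPM (SD, n = 3). *Myh11*, the smooth muscle myosin heavy chain of mature cells, was at 3.21, 3.97 and 5.49 CPM, and *Myocd*, the co-activator of serum response factor, was at 50.2, 51.2 and 39 CPM. On the length-scaled level *Acta2* was at 1962 ± 169 and *Myh11* at 1.63 ± 0.437. Embryonic cardiomyocytes also express *Acta2*, *Tagln*, *Cnn1* and *Myocd*, so these genes do not by themselves mark smooth muscle here. The sum of the list is likewise not a level of smooth muscle alone. *Acta1*, skeletal actin, was at 374, 330.2 and 323 CPM, while 3 of 15 skeletal and branchiomeric muscle genes had a value and none of the 5 that define the list.

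Cushion mesenchyme and matrix genes were abundant, led by matrix proteins. The 22 genes summed to 13413, 11995 and 12472 CPM, 15 of them with the highest level in pool 3 (35.4% of all genes). *Vcan*, a proteoglycan of cardiac jelly, was at 1966 ± 121 CPM (SD, n = 3), and *Postn*, periostin of cushion mesenchyme, at 759 ± 103 CPM (SD, n = 3). *Hapln1*, a link protein that binds hyaluronan, was at 351 ± 44.9 CPM (SD, n = 3), and *Has2*, the hyaluronan synthase, at 79.6 ± 12.4 CPM (SD, n = 3). The list also held factors of mesenchymal transformation. *Twist1* was at 127, 84.9 and 118 CPM and *Sox9* at 142, 93.7 and 117 CPM. *Snai1* was at 29.6, 18.2 and 25.1 CPM and *Snai2* at 30.2, 26.5 and 28.3 CPM. *Col2a1* was at 648, 472 and 559 CPM and *Col9a1* at 186, 181 and 244 CPM, both collagens of cartilage and valve primordia, while the cartilage proteoglycan *Acan* was at 6.62, 4.9 and 6.22 CPM.

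**Figure D3:**
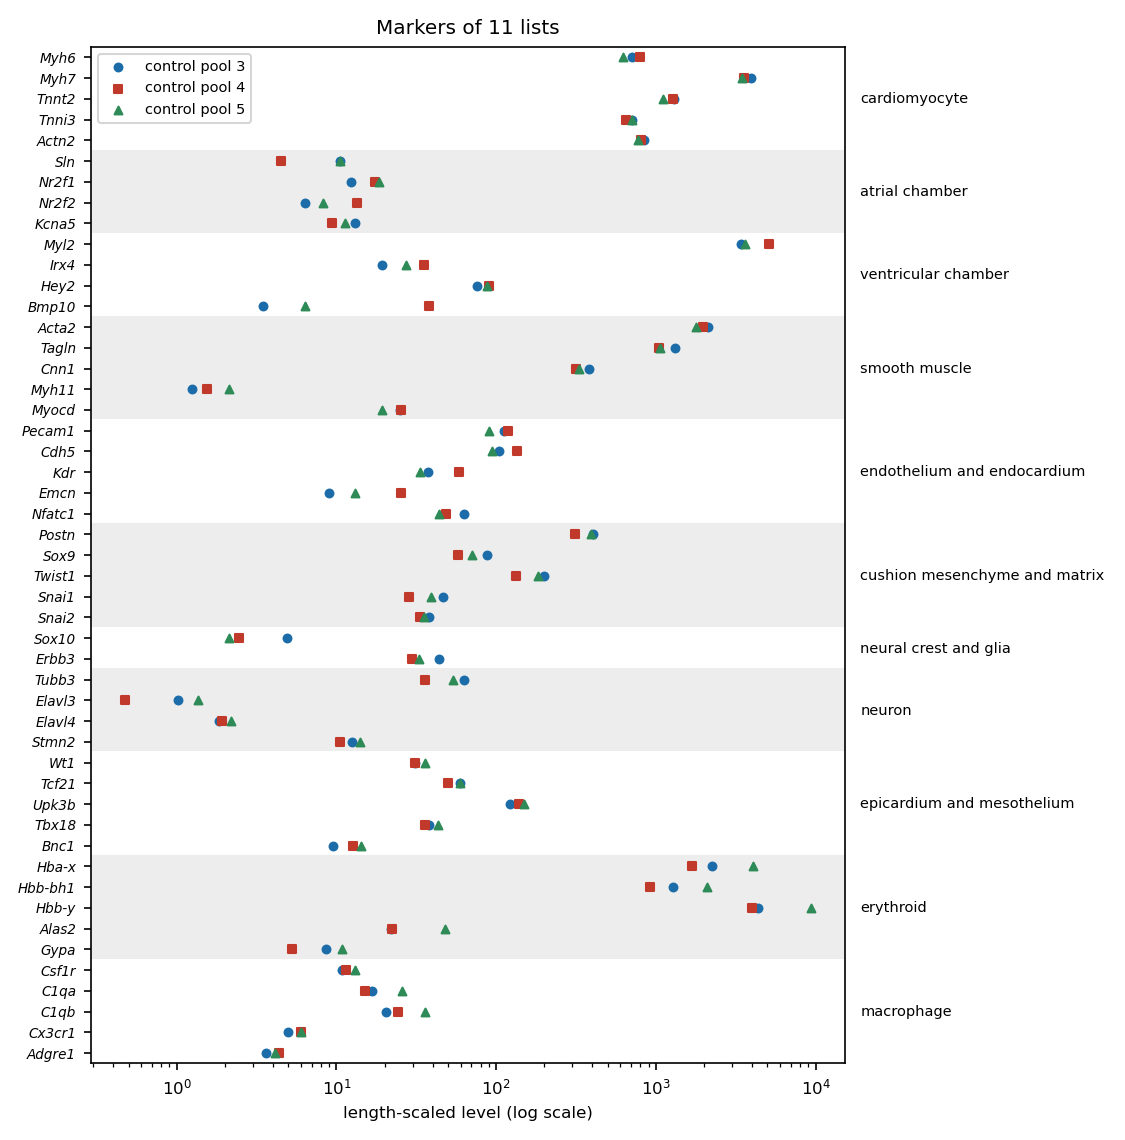
Length-scaled level, on a log axis, of defining markers of 11 lists. Symbols are the 3 control pools. *Myh7*, *Myl2*, *Acta2*, *Tnnt2*, *Tagln* and the globins average above 1000.

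Endothelial and endocardial genes were detected at moderate levels. The 23 genes summed to 1584, 1858 and 1420 CPM, with a median of 55.3 CPM. *Cdh5*, the cadherin of endothelial junctions, was at 162, 213 and 149 CPM, and *Pecam1* at 151, 160.3 and 124 CPM. *Kdr*, the main receptor of VEGF, was at 87, 137 and 78.6 CPM, *Emcn* (endomucin) at 12.4, 35.2 and 18.3 CPM and *Npr3*, a natriuretic peptide receptor, at 39.6, 100.1 and 44.5 CPM. *Kdr*, *Emcn* and *Npr3* were at least 1.5 times higher in pool 4 than in each other pool. *Nfatc1*, the endocardial factor of valve formation, was instead highest in pool 3, at 118, 91.3 and 83.6 CPM. The mean sum without pool 4 was 1502 CPM. *Lyve1*, of lymphatic vessels and some macrophages, was at 0.623, 2.45 and 1.74 CPM, while *Prox1*, which cardiomyocytes also express, was at 54.9, 55.4 and 56.3 CPM.

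Defining genes of neural crest and of neurons were mostly low. In the neural crest list 10 of 15 genes had a value, with a median of 14.7 CPM. *Ets1*, which endothelium also expresses, was the most abundant at 122, 133.3 and 111 CPM. *Sox10*, the factor of crest and glia, was at 5.32, 2.66 and 2.35 CPM. *Erbb3*, a neuregulin receptor that cushion mesenchyme also uses, was at 104, 70.4 and 78.6 CPM. *Ednrb*, an endothelin receptor, was at 22.5, 81 and 27.8 CPM, highest in pool 4, and *Ednra* was at 37.4, 48.6 and 41.4 CPM. Of 21 neuronal genes, 13 had a value, with a median of 2.76 CPM. *Tubb3* was at 46.2, 26.2 and 40 CPM.

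Epicardial and mesothelial genes were detected in every pool. The 11 genes summed to 521.0, 525.6 and 615.1 CPM, 9 of them highest in pool 5 (32.3% of all genes). *Wt1* was at 37.4, 37.7 and 44 CPM, *Tcf21* at 41.5, 35.2 and 42 CPM, *Tbx18* at 69.5, 65.9 and 80.8 CPM and the mesothelial uroplakin gene *Upk3b* at 169, 193 and 209 CPM. These are factors and surface proteins of the epicardium, and of mesothelium nearby. By contrast, of 21 pharyngeal and foregut epithelial genes 3 had a value, and none of the 5 that define the list. *Krt8* and *Krt18*, keratins also made by mesothelium, were at 71.4, 43.4 and 56.6 and 38.6, 26.5 and 38.7 CPM. *Sox2* was at 1.34, 1.1 and 2.58 CPM.

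Genes of white blood cells, platelets and liver were low. Macrophage genes had a median of 4.86 CPM, with *Csf1r*, the receptor for colony-stimulating factor, at 19.9, 21.3 and 24.4 CPM. The 8 megakaryocyte genes summed to 31.2, 28.5 and 28.4 CPM, with *Itga2b* at 12.5, 12.9 and 12 CPM. *Afp*, the alpha-fetoprotein gene of liver and yolk sac, was at 0.144, 9.83 and 9.41 CPM, near 0 in pool 3 and near 10 CPM in the others. Of 10 hepatoblast genes 4 had a value, and *Ttr* was at 0.336, 1.59 and 1.06 CPM.

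Proliferation genes varied little between pools. The 28 proliferation genes summed to 4009, 4292 and 4410 CPM, 20 of them at 100 CPM or more, and none differed by 1.5-fold between pools. *Top2a*, the topoisomerase of dividing cells, was at 419 ± 36.3 CPM (SD, n = 3) and *Mki67* at 388 ± 45.1 CPM (SD, n = 3). The immediate early genes summed to 344.7, 311.5 and 313.8 CPM, with *Fos* at 7.19, 6.8 and 7 CPM and *Jun* at 154, 138 and 135 CPM. The hypoxia and glycolysis genes summed to 12826, 10492 and 11562 CPM. They were highest in pool 3 for 11 of 15 genes (35.4% of all genes). *Ldha*, lactate dehydrogenase, was at 2062, 1629 and 1794 CPM, and *Slc2a1*, a glucose transporter, at 767, 566 and 766 CPM.

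**Figure D4:**
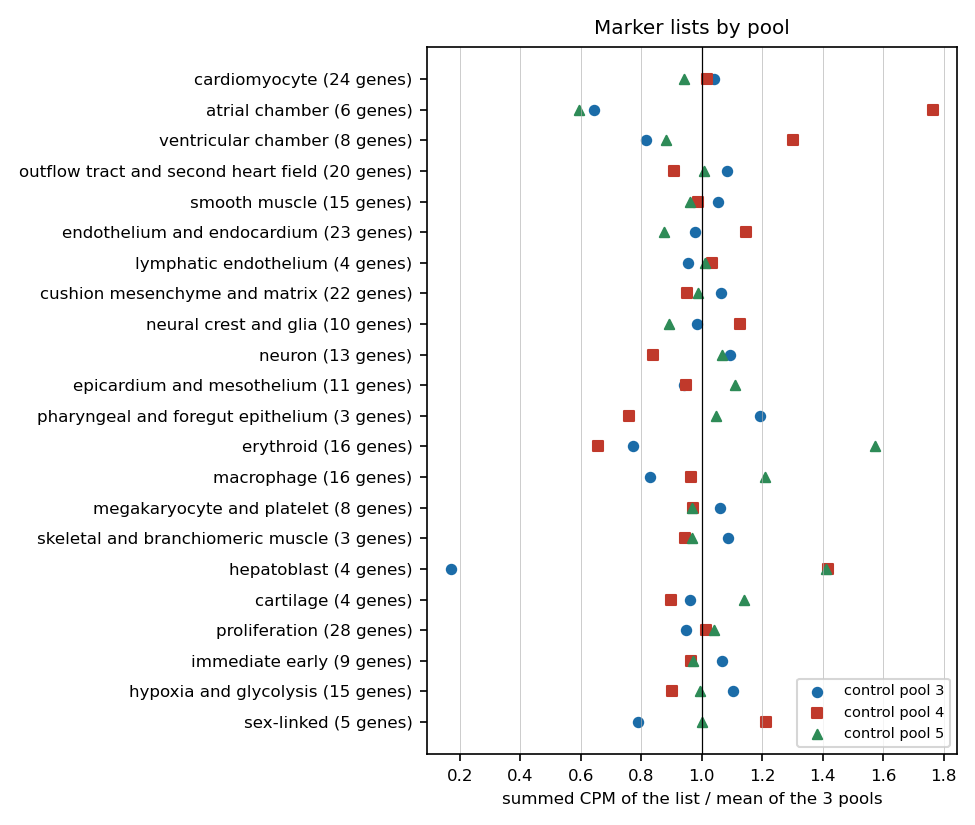
Summed CPM of each of the 22 marker lists in each pool, divided by the mean of the 3 pools. The line marks 1, and the number of genes with a value is in brackets. Pool 4 is far to the right for the atrial and ventricular lists, pool 5 for the erythroid list, and pool 3 far to the left for the hepatoblast list.

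By mean CPM, the genes of the OFT and second heart field were led by *Tbx20*, *Gata4* and *Rgs5*, the last at 297 CPM. On the length-scaled level *Gata4*, *Hand2* and *Bmp4* led, at 285, 267 and 220. Of 22 genes 20 had a value, with a summed level of 3018, 2535 and 2810 CPM, and 11 were highest in pool 3 (35.4% of all genes). *Sema3c*, the semaphorin that guides crest cells into the OFT, was at 218, 185 and 232 CPM, *Bmp4* at 203, 156 and 179 CPM and *Rspo3*, a Wnt agonist, at 98.9, 63.3 and 90.2 CPM. *Wnt11*, a non-canonical Wnt ligand of OFT myocardium, was at 68.9, 48.4 and 64.1 CPM. *Isl1*, which marks second heart field progenitors, was at 37.5, 34.6 and 42.4 CPM, and *Fgf10* at 4.12, 2.62 and 4.2 CPM. *Fgf8*, also a defining gene of the list, had no value. *Eya1*, of pharyngeal progenitors, was at 0.959, 1.97 and 0.784 CPM, in pool 4 at least 1.5 times its level in each other pool. Its values rest on 20, 57 and 14 reads, where counting alone gives a coefficient of variation of 21.5%.

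Transcription factors of 30 families were assigned by symbol to 431 genes, of which 59 (13.7%) had a mean of at least 100 CPM, against 15.4% of all genes. Their median was 28.7 CPM, and they held 2.41% of all CPM. The most abundant by CPM was *Peg3*, an imprinted zinc finger gene, at 952 ± 14.3 CPM (SD, n = 3), followed by *Ybx1*, a Y-box protein that also binds RNA, at 804 ± 11.5 CPM (SD, n = 3). *Tbx20*, a T-box factor of myocardium and cushion, ranked 3 at 642 ± 85.1 CPM (SD, n = 3), and *Gata4* 6 at 382 ± 50.7 CPM (SD, n = 3). *Gata6*, the gene the study's mutation affects, ranked 10 among the factors at 286 ± 28.9 CPM (SD, n = 3), with 315, 257 and 286 CPM in pools 3, 4 and 5. *Gata5* was at 89.6 ± 12.4 CPM (SD, n = 3), and the GATA cofactor *Zfpm1* at 232 ± 45.8 CPM (SD, n = 3). *Gata4*, *Gata5*, *Gata6*, *Zfpm1*, *Tbx20*, *Hand2* and *Nkx2-5* were each lowest in pool 4, and the share of all genes lowest in pool 4 was not counted. Other heart factors, *Mef2a*, *Mef2c*, *Srf*, *Tbx5* and *Irx4*, were instead highest in pool 4. *Gata4*, *Gata5* and *Gata6* were each highest in pool 3, as were 35.4% of all genes.

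Dividing by length kept 15 of the 20 factors. On that level *Ybx1* ranked 1, at 1254 ± 26.3, and *Jund* ranked 2, at 578 ± 91.6. *Id3* and *Id2*, inhibitors of basic helix-loop-helix factors that BMP signals induce, ranked 3 and 5 at 437 ± 47.8 and 288 ± 30.5. *Gata4* was at 285 ± 38.6, *Hand2* at 267 ± 24.9, *Gata6* at 192 ± 19.4, *Tbx20* at 179 ± 23.8 and *Nkx2-5* at 165 ± 22. *Gata4* lay above *Gata6*, *Tbx20* and *Nkx2-5*, whose ranges over the pools overlapped but which kept this order in each pool. *Twist1* was at 171 ± 34.2 and *Sox9* at 72.1 ± 14.8.

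**Figure D5:**
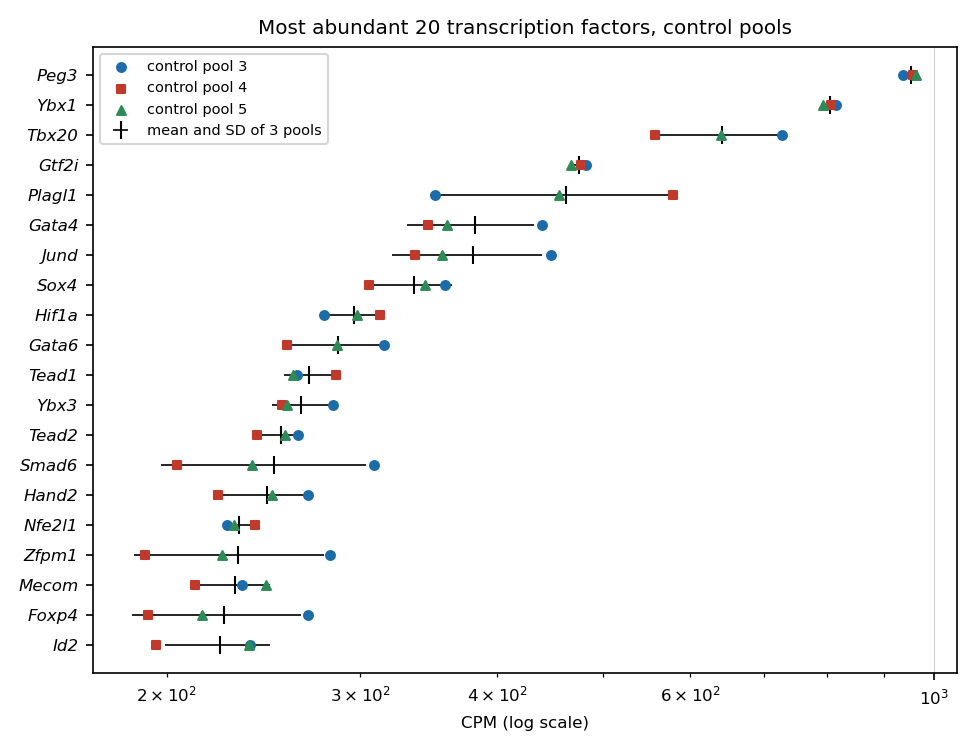
The 20 transcription factor genes with the highest mean CPM, on a log axis. Symbols are the 3 control pools, and the bar is the mean and SD (n = 3). *Gata6* lies at 257 to 315 CPM, with pool 4 lowest.

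The factor families differed in level. Of 7 T-box genes with a value, 1 (*Tbx20*) reached 100 CPM, with *Tbx2* at 45.3, 26.2 and 37 CPM, *Tbx3* at 15.6, 9.87 and 11.9 CPM and *Tbx5*, of the atria and left ventricle, at 8.44, 14.6 and 10.2 CPM. *Tbx2* and *Tbx3*, repressors of the chamber programme, were lowest in pool 4, and *Tbx5* was highest in it. The 12 HOX genes had a median of 4.87 CPM, with *Hoxd3* the highest at 9.11, 9.59 and 9.02 CPM. Among MADS factors, *Mef2a* was at 164, 173 and 166 CPM, *Mef2c* at 84.5, 105 and 90.8 CPM and *Srf* at 109, 119.8 and 105 CPM. In all, 64 of 431 factors (14.8%) differed at least 1.5-fold between pools, against 10.2% of all genes. This share depends on level. Over all genes it was 25.4% at 1 to 10 CPM and 1.28% at 100 to 1000 CPM. Among the factors it held 6 of 12 HOX genes and 5 of 10 paired-type homeobox genes, families with medians of 4.87 and 2.05 CPM. Factors and other genes were not compared at matched levels.

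The spread beyond counting error was estimated on the whole reads behind the CPM values. The common biological coefficient of variation was 10.9%. The median coefficient of variation between pools was 5.86% for genes from 100 to 1000 CPM, where counting alone gives 1.68%, and 16.3% for genes from 1 to 10 CPM, where counting alone gives 11.99%. In the latter range 25.4% of genes differed by 1.5-fold or more, against 1.28% in the former. The 10 genes with the smallest spread at 50 CPM or more, among them *Ulk2* at 77.4, 77.4 and 77.4 CPM and *Sgpl1* at 73, 73.1 and 73 CPM, varied less than counting error, so their order carries no information. Of the 15 genes with the largest ratio at 5 CPM or more, 10 were highest in pool 4 (32.3% of all genes), and 5 were processed pseudogenes.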

How the data were processed

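The samples were grouped by the genotype in the labels, and the 3 WT pools were described. Reads were 60 bases, single-end. Per the labels and the study's methods, the authors trimmed reads with cutadapt, quantified genes with RSEM on GRCm38 with Ensembl genes, and normalized with edgeR (TMM). The deposited CPM values refer to library sizes scaled by TMM, and each gene is at 1 CPM or more in at least 3 of all 7 pools. Because this filter read the mutant pools too, 42 listed genes were below 1 CPM in all 3 control pools. All values of each control pool were whole multiples of 1 read (tolerance 0.001 reads), and the recovered reads gave depth and counting error, which cover counting error only. Since RSEM estimates need not be whole, how the whole numbers arose was not given in the sources used here.

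Here, means, SDs and ratios (CPM + 0.5) were computed in Python 3.11.15. Dispersion was estimated with edgeR 4.0.16 in R 4.3.3, with an intercept only, and the spread rule was tested on simulated data. Lengths are of the longest transcript in GENCODE M21, which held 14716 of the 14732 IDs. Windows of 60 bases were compared on the same strand with all its transcripts. Nothing says that pools shared embryos, litters or days. The methods give 3 pools per genotype, whereas the labels give 3 control and 4 mutant pools. No column was without a sample.

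The pools and the lists were chosen with earlier results of these data known, and the lists hold 321 genes, of which 267 had a value. The genes named were the 20 most abundant by CPM and by length-scaled level, the same for transcription factors, the defining and most abundant genes of each list, the 15 with the largest and the 10 with the smallest spread, and *Gata6*. Others, and the count of genes high in 1 pool, were chosen after their values were seen. Alternatives were leaving out each pool, other scalings, constants, thresholds and filters, and lengths of merged exons. No gene was tested for a difference, since the pools are 1 group. Some genes that these rules name are not reported here.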

Additional observations from a re-analysis of the deposited data

How the results depend on the processing

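No paired analysis was possible because 1 group of pools was described and no result comes from a test. The count of genes differing by 1.5-fold or more between pools, 1498, varied with the settings. It was 699 to 804 with 1 pool left out, where 2 pools have a smaller range by construction, 1917 and 595 with 0.1 and 2 CPM added instead of 0.5, 454 among genes of at least 5 CPM and 363 at a 2-fold threshold. The count of genes at 100 CPM or more, 2262, was 4712 at a 50 CPM threshold. Length scaling kept 13 of the 20 most abundant genes. With at least 5 CPM, the genes high in pools 3, 4 and 5, a count chosen after seeing the data, numbered 12, 71 and 37 in place of 86, 165 and 131. The summed level of each list moved by less than 1 SD under the other scalings. The mean atrial sum was 136.2 CPM and 84.2 CPM without pool 4, and the mean erythroid sum was 3930.5 CPM and 2807 CPM without pool 5. With 3 pools, an SD is itself imprecise, and at 1 to 10 CPM counting error is a large part of the spread.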

Other observations

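These genes were chosen after their values were seen. Several imprinted genes, expressed from 1 parental copy, were among those with high levels. Beside *H19*, *Igf2*, *Igf2r* and *Peg3*, *Grb10*, an inhibitor of growth factor receptors, was at 1996, 1941 and 1999 CPM in pools 3, 4 and 5. *Cdkn1c*, a cell cycle inhibitor, was at 745, 985 and 729 CPM. *Mest* was at 804, 2045 and 960.3 CPM and *Plagl1* at 351, 579 and 455 CPM, both highest in pool 4. *Dlk1* was at 330.2, 193 and 209 CPM, highest in pool 3.

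Outside the lists, genes high in pool 4 included *Gja1*, which encodes connexin 43, at 61.9, 181.6 and 97.7 CPM. *Smpx*, a small muscle protein gene, was at 50.7, 130.1 and 63.9 CPM, and *Abcc9*, a potassium channel subunit gene, was at 21.7, 67.2 and 32.6 CPM. The homeobox genes *Irx2*, *Irx3* and *Irx5* had their highest level in pool 4 as well, at 8.005, 14.4 and 11.7 CPM, against at most 4.87, 8.46 and 4.87 CPM in the other pools. Genes high in pool 5 outside the lists included the red cell genes *Trim10*, at 3.64, 3.69 and 12.3 CPM, *Ermap*, at 8.97, 7.87 and 22.7 CPM, and *Kel*, a blood group antigen gene, at 5.71, 6.59 and 13.4 CPM. *Ube2n-ps1* is listed at 0 in each control pool.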
